A study of Mus musculus with 2 samples.

Results

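DNA damage repair genes encode the proteins that detect broken, crosslinked or mismatched DNA, stop the cell cycle and restore the sequence. The 32 genes described here cover the Fanconi anaemia pathway, which unhooks crosslinks between DNA strands, homologous recombination, which copies an intact sister strand into a break, the sensors and kinases of the damage checkpoint, and mismatch repair. Neural progenitors of the embryonic brain divide fast, and inherited loss of several of these genes is known to cause small brain size or loss of neurons. The genes were looked up by name, with older RefSeq synonyms accepted, in a list of Sap130 binding sites. Sap130 belongs to the Sin3 corepressor complex, whose histone deacetylases remove acetyl groups from chromatin. Of the 32 genes, 27 were named on at least 1 peak, and together they held 29 of the 12656 peaks that carry a gene name in a list of 16231.

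The peaks came from brain of B6 wildtype mouse embryos at stage E13.5. The ChIP library came from chromatin pulled down with rabbit anti-Sap130 antibody (2 µg), and the input library from DNA of the same tissue, genotype and stage that saw no antibody. How many embryos were pooled is not stated. Chromatin immunoprecipitation followed by sequencing (ChIP-seq) reads the DNA that stays attached to a protein, and the comparison with input asks where Sap130 sits on the genome. With 1 library of each kind there was no replicate check. The deposited table gives position and gene name only, with no height, score or read total, which leaves sequencing depth unknown. Each named peak had its centre within 1 kb of the start of the transcript model printed beside it, and is called a named promoter peak below. The running number of a peak is called its place, and the quantity behind that order is not stated. All positions are in GRCm38 (mm10). The labels give the tissue as Brain, with no region. Of 8 neural marker genes 6 had a named peak, all but Nes and Dcx, and of 9 blood, vessel and immune markers 0 did. Taking 3 counts as the upper limit of 0, those 9 allow a share of up to 33.3%. Over all protein-coding genes the share was 49.2%. A peak shows neither expression nor the cell type it came from.

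Named promoter peaks were frequent among the repair genes. They were found at 27 of 32 genes (84.4%, exact 95% binomial interval 67.2 to 94.7), against 49.2% of 20949 protein-coding genes. The interval covers counting error only. With the centre required to lie within 500 bp of the start, 26 of 32 remained (81.2%), against 44.0% of all genes, and the gene lost was Trp53. Among the first 8115 peaks of the list there were 21 of 32 (65.6%), against 33.0% of all genes. Among the 8115 widest peaks, those of 690 bp and more, there were 13 of 32 (40.6%), against 31.6% of all genes, and the interval of 23.7 to 59.4 contains that background. The gap was smaller among CpG-rich promoters. Among genes whose promoter window has an observed to expected CpG ratio of at least 0.6, 20 of 23 repair genes had a named peak (87.0%, interval 66.4 to 97.2), against 80.6% of all such genes. That background lies inside the interval.

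**Figure D1:**
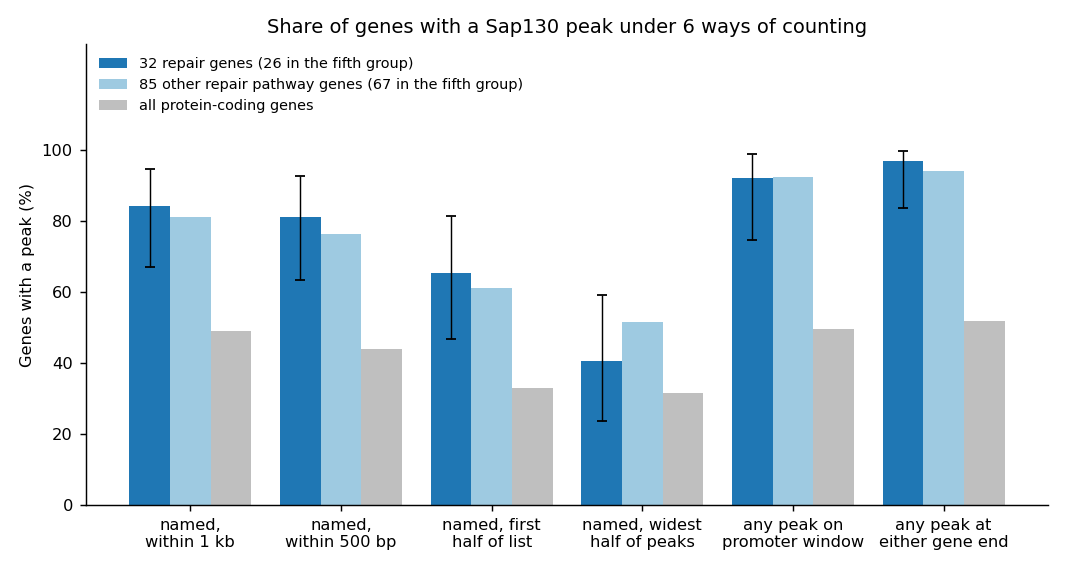
Share of genes with a Sap130 peak, in percent, under 6 ways of counting, for the repair genes (dark blue, with exact 95% binomial intervals), 85 other repair pathway genes (light blue) and all protein-coding genes (grey). The repair genes stand at 84.4% against 49.2% of all genes when any named peak counts, and at 40.6% against 31.6% when only the 8115 widest peaks count.

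All 5 genes without a named peak had a peak over their start that carried the name of a neighbour. These genes are Fancd2, Brca1, Atr, Pms2 and Wrn. Each lies head to head with another gene, with both starts close together and transcription running away on either side, and the list gives 1 gene name per peak. Among all protein-coding genes without a named peak, 1388 of 10638 (13.0%) had any peak overlapping the 1 kb on either side of a gene end. Among the 687 unnamed protein-coding genes with a known strand that lie head to head with another, the partner was named on a peak for 587 (85.4%). Neither count asks for a peak over the start of the unnamed gene, so both are looser than the description of the 5 genes.

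Pms2, which encodes an endonuclease subunit of mismatch repair, starts at 143909901 on chromosome 5, 62 bp from the start of Aimp2, which encodes a scaffold of the tRNA synthetase complex. A 1440 bp peak from 143909077 to 143910517 covered both starts. It stood at place 63 of the list under the name Aimp2, earlier than any peak named for a repair gene. Atr, the kinase that responds to stalled replication forks, starts at 95857597 on chromosome 9 and shares 285 bp with 1700065D16Rik on the other strand. The 978 bp peak over both starts, from 95857488 to 95858466, stood at place 300 under the name 1700065D16Rik.

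Fancd2 encodes a protein that receives ubiquitin when the Fanconi pathway is switched on. Its lower end at 113531640 on chromosome 6 lies 2 bp from the start of Emc3, a gene of the endoplasmic reticulum membrane complex. A 782 bp peak from 113531155 to 113531937, at place 468 and named Emc3, covered both. Brca1, a ubiquitin ligase that promotes recombination at breaks, starts at 101551955 on chromosome 11, 152 bp from the autophagy receptor gene Nbr1. The 1094 bp peak from 101551515 to 101552609 (place 2945) spanned both starts, and a second peak named Nbr1 (819 bp, place 4520) lay further inside Nbr1. Wrn encodes the helicase mutated in Werner syndrome. Its upper end at 33385543 on chromosome 8 lies 76 bp from Purg and within a 1741 bp peak from 33385220 to 33386961, which stood at place 6737 under the name Purg. The strand of Fancd2 and of Wrn is not given in the tables used here, so the end nearer to the partner was taken.

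In all 5 cases the peak centre was nearer to the start of the gene that gave the name. The distances were 104 bp to Pms2 and 42 bp to Aimp2, 94 bp to Fancd2 and 92 bp to Emc3, and 107 bp to Brca1 and 45 bp to Nbr1. The pairs of Atr and Wrn differed more. The centre lay 380 bp from Atr and 95 bp from 1700065D16Rik, and 547.5 bp from Wrn and 234.5 bp from Purg. The Purg distance is to the start of the model that gave the name, at 33386325. The outermost Purg start at 33385619, which lies 76 bp from Wrn, is further from the centre but still nearer to it than Wrn. A missing name therefore did not mean a missing peak at these genes. Counted by position, a peak overlapped the 1 kb on either side of a gene end in 31 of 32 repair genes (96.9%, interval 83.8 to 99.9), against 52.0% of all protein-coding genes. The exception was Fancc, whose named peak sits at an inner start. The named peak of Trp53bp1 also sits at an inner start, and that gene is among the 31 only by a peak named Map1a. In the promoter windows of RefSeq, which reach from 250 bases before to 50 after a start, a peak overlapped 24 of 26 repair genes (92.3%), against 49.6% of all genes, and Fancl and Rad51c were the exceptions.

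The shared promoters of Pms2 and Brca1 are shown because their peaks carry the partner's name. Both windows are from RefSeq (GRCm38.p6), on the strand of the repair gene and written 5′ to 3′, chr5:143909751-143910050 on the plus strand for Pms2 and chr11:101551906-101552205 on the minus strand for Brca1. Capitals mark the CCAAT box in either orientation (CCAAT or ATTGG).
Pms2: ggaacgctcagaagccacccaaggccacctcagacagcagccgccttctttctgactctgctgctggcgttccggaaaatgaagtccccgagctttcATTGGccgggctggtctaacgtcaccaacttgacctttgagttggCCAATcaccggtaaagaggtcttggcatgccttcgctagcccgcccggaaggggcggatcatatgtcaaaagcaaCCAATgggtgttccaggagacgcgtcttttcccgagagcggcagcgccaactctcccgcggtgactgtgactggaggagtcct
Brca1: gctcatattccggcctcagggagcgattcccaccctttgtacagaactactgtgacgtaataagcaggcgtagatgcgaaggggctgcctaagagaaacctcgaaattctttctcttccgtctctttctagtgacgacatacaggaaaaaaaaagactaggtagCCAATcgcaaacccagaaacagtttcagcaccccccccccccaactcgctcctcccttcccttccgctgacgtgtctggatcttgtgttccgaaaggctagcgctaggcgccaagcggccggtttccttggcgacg
The Pms2 window holds 3 such boxes and the Brca1 window 1.

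Head-to-head arrangement was common in the whole set. Of the 30 repair genes with a known strand, 14 (46.7%) had the start of another protein-coding gene on the opposite strand within 1000 bp of their own, compared with 1985 of 18755 protein-coding genes (10.6%). With the starts of the RefSeq promoter windows and of the named models in place of the outermost gene ends, the counts were 12 of 30 (40.0%), against 1800 of 18755 (9.60%). With Fancd2 and Wrn, 16 repair genes have such a partner. In 7 of the 14 pairs both genes were named on a peak, in 4 the repair gene alone and in 3 the partner alone. Over the 1985 head-to-head genes of the background, both were named for 714 (36.0%), the gene alone for 584 (29.4%), the partner alone for 587 (29.6%) and neither for 100. So 11 of the 14 head-to-head repair genes had a named peak (78.6%), compared with 65.4% of head-to-head protein-coding genes. Fancd2 and Wrn, unnamed with a named partner, are not among the 14 because their strand is not given. With them the count is 11 of the 16 repair genes that have a partner. All 16 repair genes with a known strand and no partner had a named peak, compared with 53.7% of 16770 protein-coding genes without a partner. Where no promoter window gave the strand, the named peak's model did, as for Rad51d, Xrcc2, Rad50 and Nbn among these 16. Unnamed genes without a window drop out, in the repair set and the background alike, which raises these shares of named genes. The shares were also not split by CpG ratio. Of all protein-coding genes with a CpG ratio of at least 0.6, 80.6% had a named peak. These counts describe 1 gene set and were not tested.

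**Figure D2:**
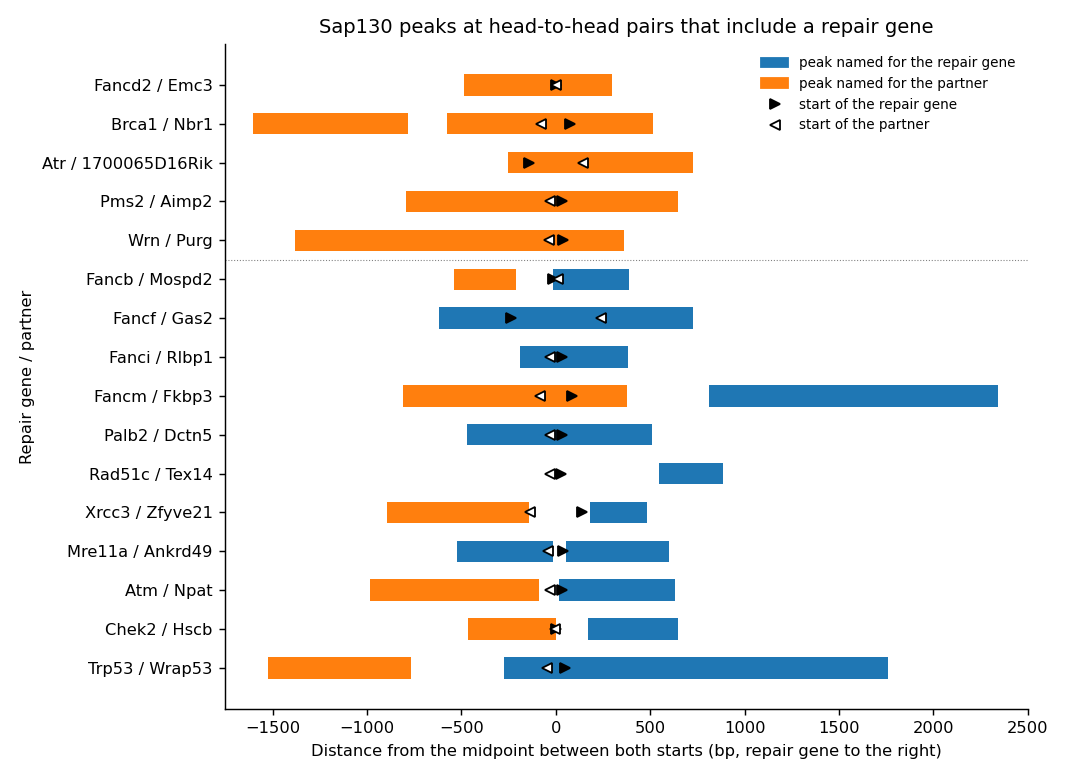
Sap130 peaks at the 16 head-to-head pairs, drawn by distance in bp from the midpoint between both starts with the repair gene to the right. Blue bars are peaks named for the repair gene, orange bars peaks named for the partner, and triangles mark the 2 starts. The first 5 rows are the genes without a named peak, each with 1 orange bar over both starts.

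The pairs fell into different layouts. A single peak over both starts carried the name of the repair gene at Palb2, the bridge between BRCA1 and BRCA2, whose 977 bp peak also covered the start of the dynactin gene Dctn5 61 bp away. The same held for Fanci with Rlbp1, and for Fancf with Gas2, where the 1343 bp Fancf peak covered both starts. Gas2, unlike Dctn5 and Rlbp1, was also named on another peak, at place 14471. At Atm, the kinase that responds to double-strand breaks, the 614 bp peak lay on the Atm side (53536226 to 53536840 on chromosome 9, place 1698). A separate 893 bp peak lay on the side of Npat, a histone gene coactivator (place 7671). Flanking peaks were also seen at Xrcc3 (302 bp, place 10661), with a peak of 752 bp at place 3318 named for Zfyve21. At Chek2 a 467 bp peak named Hscb (place 8754) reached over both outermost starts, which lie 7 bp apart. The 474 bp peak named Chek2 (place 9278) lay further inside the gene, over the start of the model that named it. At Fancb on X the repair gene's peak (401 bp, place 12922) reached over both starts, and Mospd2 had its own of 330 bp at place 14137. Mre11a, the nuclease of the break-sensing complex, had both flanking peaks under its own name. Its earlier peak (509 bp, place 3937) covered the start of Ankrd49 and not its own. The later one (542 bp, place 7503) covered the start of the model that named it, at 14784707, and began just inside the outermost Mre11a start at 14784654.

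The Fanconi anaemia core complex, which attaches ubiquitin to FANCD2, and its anchor were named on peaks in full. All 8 genes had a named peak, with places from 484 to 12922 (median 5992.5) and widths from 261 to 1530 bp (median 453 bp). The background share was 49.2% of all protein-coding genes, and 80.6% of those with a CpG ratio of at least 0.6. It applies to the counts of the smaller groups below as well, and none was tested. Fancg, a core subunit, had the earliest peak named for any of the 32 genes. It spanned 43010093 to 43010627 on chromosome 4 (534 bp, place 484), reached from 326 bp before the start to 208 bp after it and was centred 59 bp upstream. Of the 444 protein-coding genes named up to that place, 5 had a peak no wider than this one, Fancg included. Fancm, the DNA translocase that anchors the complex, had the widest peak of the group at 1530 bp (65074838 to 65076368 on chromosome 12, place 2784), centred 3 bp upstream of its start. A 1185 bp peak named Fkbp3 (place 3364) covered both the start of Fkbp3 and the outermost Fancm start, which lie 172 bp apart. The Fancm peak lay further inside the gene, over the start of the model that named it. Fancf followed at place 2852. It has a single exon, and the centre of its peak lay in the coding part.

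Fancl, the ubiquitin ligase of the complex, had the narrowest peak of the 27 genes. It spanned 26387153 to 26387414 on chromosome 11 (261 bp, place 10568), began 69 bp inside the gene and did not cover the start. Its promoter window also had the lowest CpG ratio of the repair genes, 0.18. Fance (465 bp, place 6118) likewise began 14 bp inside the gene. Fanca (368 bp, place 6468) reached only 17 bp upstream of its start. Fancc (441 bp, place 5867) was named at a start at 63431745 on chromosome 13, while the outermost RefSeq end of the gene at 63497292 had no peak within 1 kb. The latest peak of all 27 genes was that of Fancb, the only X-linked gene of the 32. In the pair that receives the ubiquitin, Fanci had a named peak (571 bp, place 7512), and Fancd2 shared that of Emc3 described above.

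**Figure D3:**
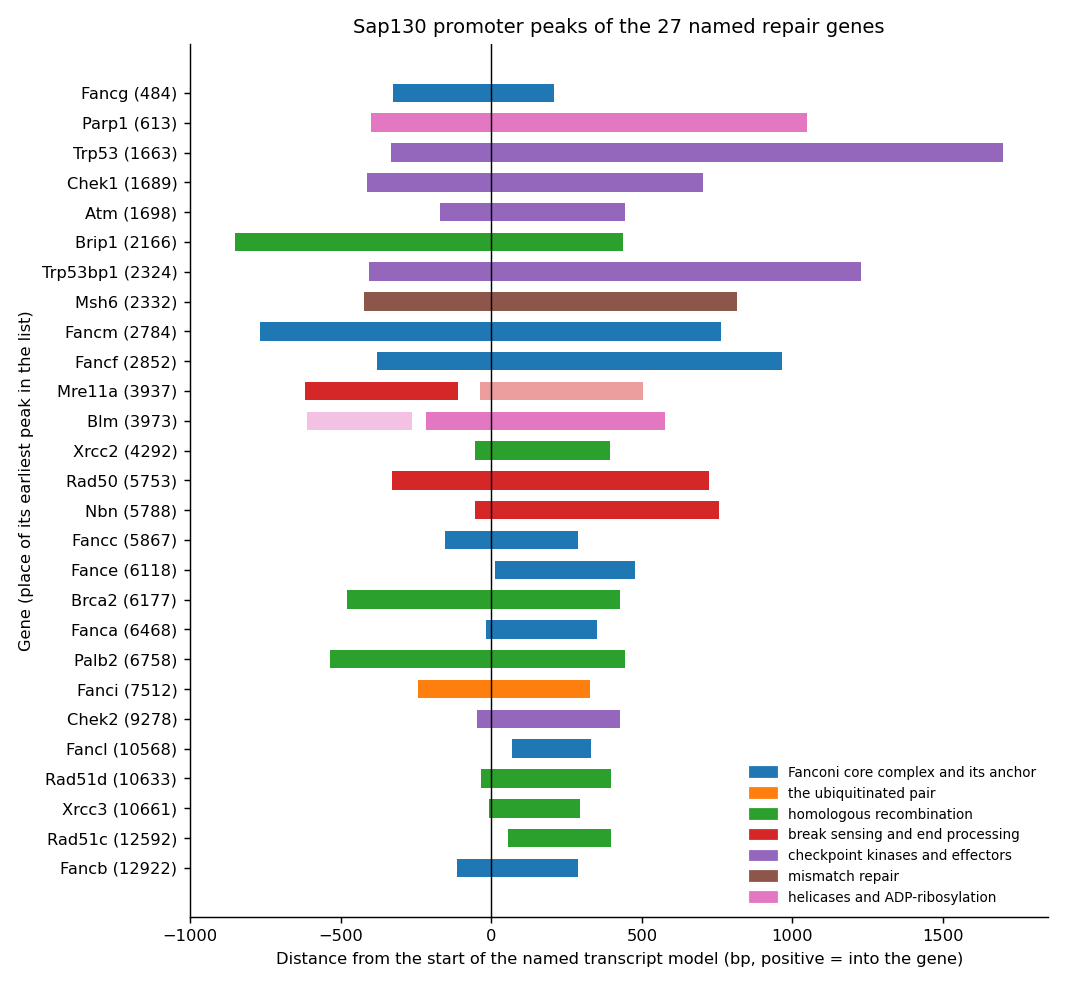
Extent of each named Sap130 peak relative to the start of its transcript model, in bp with positive values inside the gene, for the 27 named repair genes in order of the place of their earliest peak (in brackets). Colours give the role of the gene, and the paler bars at Mre11a and Blm are their later peaks. The bars of Fance, Fancl and Rad51c begin inside the gene, and the first bar of Mre11a ends before its start.

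Homologous recombination genes had peaks from early to late in the list. Of 8 genes 7 were named, at places 2166 to 12592 (median 6758). Brip1, a helicase that binds BRCA1, was the earliest. Its 1289 bp peak ran from 86200756 to 86202045 on chromosome 11 and was centred 207.5 bp upstream of the start. Brca2, a mediator of recombination at breaks and stalled forks, had a 906 bp peak at place 6177 that was centred 25 bp upstream, and the Palb2 peak at place 6758 was centred 45.5 bp upstream. The genes Xrcc2, Rad51d, Xrcc3 and Rad51c, whose proteins form complexes that assist recombination, had narrow peaks. Xrcc2 had 449 bp at place 4292, Rad51d 432 bp at place 10633, Xrcc3 302 bp at place 10661 and Rad51c 342 bp at place 12592. Of these 4, 3 came after place 8115. Of all named protein-coding genes, 22.3% lay at places 8116 to 12173 and 10.6% from place 12174 on. All 4 were narrower than 841 bp, the median that splits all named protein-coding genes evenly. The Rad51c peak (87404096 to 87404438 on chromosome 11) began 57 bp inside the model that named it and did not reach the gene's outermost end, which lies 59 bp from the testis gene Tex14.

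The 3 genes of the break-sensing complex were all named, before place 8115. Rad50, its ATPase, had a 1055 bp peak (53706595 to 53707650 on chromosome 11, place 5753), and Nbn, which recruits ATM, had one of 810 bp (15957914 to 15958724 on chromosome 4, place 5788). Both covered the start of the model that named them. The Nbn peak began inside the outermost RefSeq start of that gene, which is at 15957587. Mre11a and Blm were the only repair genes with more than 1 named peak, that is 2 of 27 (7.41%), compared with 16.3% of named protein-coding genes.

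Checkpoint genes held the 2 widest peaks. Of 6 genes 5 were named, with a median place of 1698 and a median width of 1116 bp. Trp53, which encodes the tumour suppressor p53, had the widest of the 27. It spanned 69580025 to 69582058 on chromosome 11 (2033 bp, place 1663), covered its own start and that of Wrap53, and extended 1699 bp into the gene. Wrap53, a telomerase factor gene transcribed from the other strand, also had a peak of 756 bp at place 4844. Chek1, the kinase downstream of ATR, had a 1116 bp peak (36725954 to 36727070 on chromosome 9, place 1689). Chek2, the kinase downstream of ATM, stood apart from this group with 474 bp at place 9278. Trp53bp1, which protects broken ends from resection, had a 1634 bp peak (121270159 to 121271793 on chromosome 2, place 2324). Its outermost RefSeq end lies further upstream, at 121296354, and was covered by a 1063 bp peak named Map1a (place 9839).

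The 3 named genes of mismatch repair, DNA unwinding and ADP-ribosylation all lay before place 4057. Msh6, whose protein recognises single-base mismatches, had a 1239 bp peak (87974627 to 87975866 on chromosome 17, place 2332) centred in the coding part of exon 1. Parp1, which marks single-strand breaks with poly(ADP-ribose), was second in place among the 27. Its peak spanned 180568575 to 180570023 on chromosome 1 (1448 bp, place 613) and was centred in intron 1. Blm, the helicase mutated in Bloom syndrome, had a 793 bp peak over the start of one model (80534421 to 80535214 on chromosome 7, place 3973). A later peak of 346 bp (place 12521) was centred 437 bp upstream of the start of another Blm model.

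**Figure D4:**
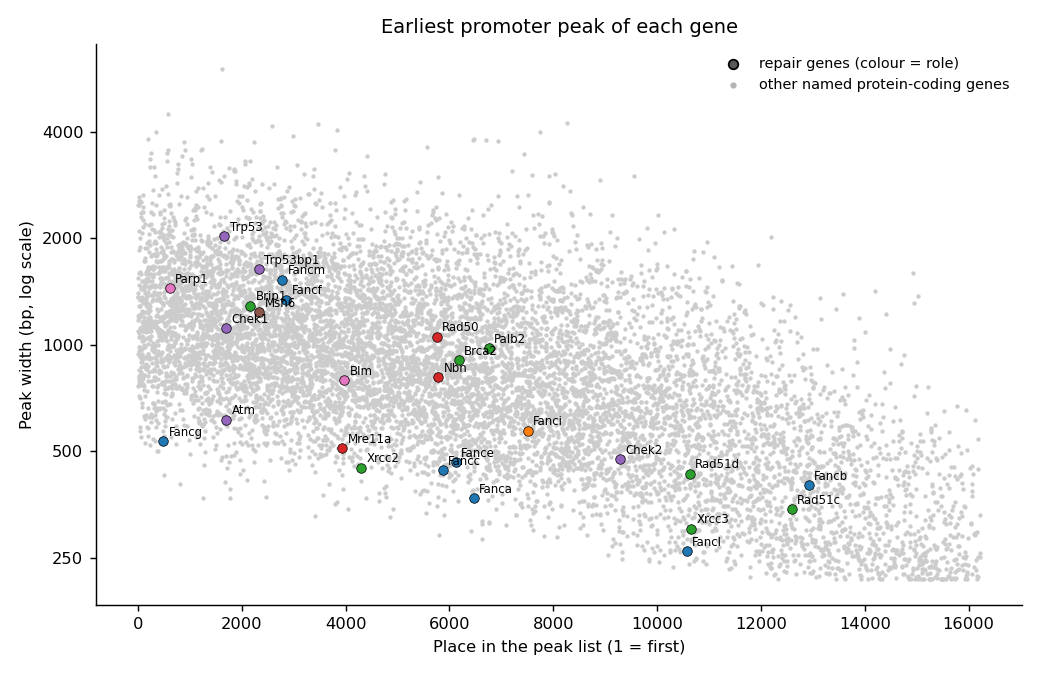
Place in the list against peak width in bp (log scale) for the earliest named promoter peak of each gene, with the 27 repair genes in colour by role and other named protein-coding genes in grey. Fancg lies low for its place at 534 bp, and Trp53, Trp53bp1 and Fancm are the widest of the repair genes.

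Over the whole set, the peaks lay at similar places in the list to those of other named genes and were narrower at the median. The median place was 5753 for the 27 genes (binomial 95% interval of the median 2332 to 6758) and 5852 for all 10311 named protein-coding genes. Places 1 to 4057 held 12 of the 27 (44.4%), compared with 35.2% of named genes, and places from 12174 on held 2 (7.41%), compared with 10.6%. The median width was 614 bp (interval 449 to 1116), compared with 841 bp, which lies inside that wide interval. A peak among the 8115 widest was found for 13 of the 27 named repair genes (48.1%), compared with 64.3% of named protein-coding genes. Peak centres lay at a median of 171.5 bp into the gene, from 364.5 bp upstream to 682.5 bp downstream, while the median over all named genes was 215 bp. By transcript model 11 centres were in intron 1 (40.7%), 6 in the 5′ UTR of exon 1, 6 upstream and 4 in the coding part of exon 1. Over all named genes 43.4% were in intron 1. The peak covered the start of the named model in 23 of 27 genes (85.2%), compared with 79.8% of named genes.

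Promoter windows were used for 26 of the 32 genes, those other than Fancd2, Rad51d, Xrcc2, Rad50, Nbn and Wrn. The median GC content was 59.0% (range 47.0 to 71.7), and 62.3% over 8338 protein-coding genes with a named peak. The median CpG ratio was 0.87, compared with 0.80 in genes with a named peak and 0.25 in those without. Below a ratio of 0.6 lay 3 repair genes, Fancl, Fancb (0.47) and Trp53 (0.49), and all 3 had a named peak.

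Letters of E2F-like motifs had a higher share in these windows than in either background. E2F factors are known to drive genes needed for DNA synthesis. One of TTTGGCGC, TTTCCCGC, TTTGCGCC or GGCGGGAA, searched on both strands, was present in 8 of 26 repair genes (30.8%). The share was 7.38% of promoters of genes with a named peak and 4.98% of all 16782. The 8 genes were Brca2, Chek1, Chek2, Fancb, Fancg, Fancm, Msh6 and Rad51c. CCAAT was present in 17 of 26 (65.4%), compared with 39.7% in genes with a named peak and 39.5% of all. GGGCGG, the GC box, was in 18 of 26 (69.2%), close to the 70.0% of genes with a named peak, while all promoters were at 47.9%. GCATGCGC, a core of the NRF1 motif, was found in 3 of 26 (11.5%), and in 6.31% and 3.73% of those 2 backgrounds. The ETS letters CCGGAAGT were in 1 of 26 (3.85%), against 8.80% of genes with a named peak and 5.46% of all. TTTGAA or TTCGAA, letters of the cell cycle homology region, also occurred in 1 of 26, against 12.6% and 17.5%, and AAGATGGC, a core of the YY1 motif, in 0 of 26, against 4.93% and 3.27%. A match is a run of letters in a window and not a bound site. TTTCCCGC and GGCGGGAA overlap when read on opposite strands, GGCGGGAA shares bases with the GC box, and the shares were not tested.

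**Figure D5:**
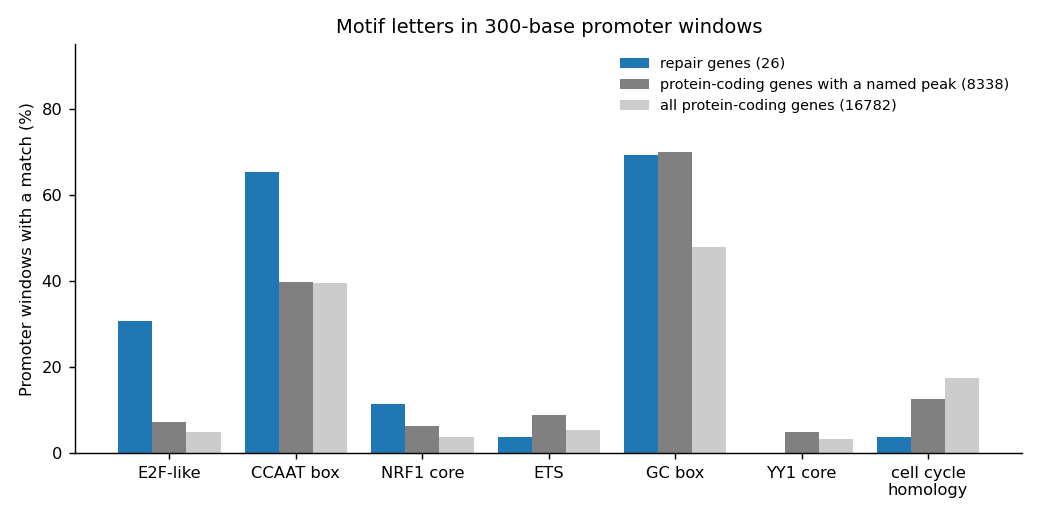
Share of 300-base promoter windows, in percent, that hold each motif on either strand, for 26 repair genes (blue), protein-coding genes with a named peak (dark grey) and all protein-coding genes (light grey). E2F-like letters are in 30.8% of repair gene windows, against 7.38% and 4.98%, while the GC box is at 69.2% against 70.0% and 47.9%.

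Windows of 5 genes with E2F-like letters are shown, among them the earliest named repair gene, Fancg. They are RefSeq sequences (GRCm38.p6), 5′ to 3′ on the strand of the gene, at chr4:43010252-43010551 (minus), chr9:36726609-36726908 (minus), chr5:110839733-110840032 (plus), chr12:65075353-65075652 (plus) and chr17:87974800-87975099 (plus). Capitals mark the E2F-like letters and the CCAAT box in either orientation.
Fancg: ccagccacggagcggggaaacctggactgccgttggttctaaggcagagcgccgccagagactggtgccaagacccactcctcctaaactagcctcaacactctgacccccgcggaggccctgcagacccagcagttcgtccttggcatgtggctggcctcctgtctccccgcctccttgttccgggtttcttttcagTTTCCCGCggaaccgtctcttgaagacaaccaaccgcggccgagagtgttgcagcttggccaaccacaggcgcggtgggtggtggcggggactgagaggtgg
Chek1: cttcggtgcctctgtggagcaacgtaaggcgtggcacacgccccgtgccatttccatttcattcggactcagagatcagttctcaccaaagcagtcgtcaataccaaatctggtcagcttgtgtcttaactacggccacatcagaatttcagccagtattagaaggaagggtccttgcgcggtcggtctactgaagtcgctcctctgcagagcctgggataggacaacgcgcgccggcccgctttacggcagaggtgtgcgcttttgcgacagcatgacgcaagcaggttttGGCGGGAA
Chek2: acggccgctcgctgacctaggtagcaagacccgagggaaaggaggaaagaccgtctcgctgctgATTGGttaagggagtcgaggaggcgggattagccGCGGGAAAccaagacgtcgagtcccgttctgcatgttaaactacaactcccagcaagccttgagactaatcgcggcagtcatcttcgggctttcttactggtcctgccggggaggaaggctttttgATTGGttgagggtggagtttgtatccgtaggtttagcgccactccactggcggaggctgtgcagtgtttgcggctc
Fancm: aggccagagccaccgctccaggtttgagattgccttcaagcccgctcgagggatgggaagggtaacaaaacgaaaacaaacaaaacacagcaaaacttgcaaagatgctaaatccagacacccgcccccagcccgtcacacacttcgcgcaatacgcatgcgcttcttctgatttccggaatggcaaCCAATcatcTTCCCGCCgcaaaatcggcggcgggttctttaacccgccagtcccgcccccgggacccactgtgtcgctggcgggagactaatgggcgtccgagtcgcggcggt
Msh6: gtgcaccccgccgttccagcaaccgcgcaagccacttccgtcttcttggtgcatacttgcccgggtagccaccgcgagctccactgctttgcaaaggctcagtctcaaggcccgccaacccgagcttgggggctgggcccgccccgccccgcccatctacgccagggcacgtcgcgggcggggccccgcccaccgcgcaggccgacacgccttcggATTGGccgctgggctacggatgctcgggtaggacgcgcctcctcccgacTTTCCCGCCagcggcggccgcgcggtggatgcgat
Counting the start as base 1, the E2F-like run begins at -52 in Fancg, at 43 in Chek1, at -152 in Chek2 and at -54 in Fancm. In Msh6 overlapping matches begin at 16 and 17. A peak under the gene's own name covered the letters in 5 of the 8 genes, namely Brca2, Chek1, Fancg, Fancm and Msh6. The same share was not computed for other genes with such letters. Any peak overlapped the promoter window in 90.1% of protein-coding genes with a named peak, so the 5 are no sign of a link to the letters. At Chek2 they fell between the peak named Hscb and the peak named Chek2, and at Fancb and Rad51c no peak covered them.

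Other genes of the repair pathways had peaks about as often. Of 85 further genes of recombination, end joining, excision and mismatch repair and the replication checkpoint, 69 (81.2%) had a named promoter peak, and 80 (94.1%) had any peak within 1 kb of a gene end. Over all protein-coding genes these shares were 49.2% and 52.0%. No share at a CpG ratio of at least 0.6 was computed for the 85 genes. For the named genes the median place was 5189 and the median width 764 bp. Among the earliest were Ung, the glycosylase that removes uracil (1413 bp, place 189), Rmi2, which partners the BLM helicase (624 bp, place 266), the CHEK1 activator gene Clspn (1075 bp, place 416) and Bard1, the partner of BRCA1 (902 bp, place 444). Of the 16 without a named peak, 13 had a peak at a gene end, against 13.0% of all protein-coding genes without a named peak. The peak was named for the head-to-head partner at 8 of the 13, Rad51b, Eme1, Gen1, Recql, Recql4, Recql5, Pms1 and Mutyh. At Rad17 and Tdg it was named for another gene, and at Slx4, Nhej1 and Neil1 for none. No peak lay within 1 kb of either end of Xrcc6, Lig1 or Mgmt, which act in end joining, ligation and removal of alkyl groups.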

How the data were processed

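Per the labels' protocols, Sap130 was precipitated with a commercial transcription factor ChIP kit and libraries were made with a commercial DNA kit. Bowtie 1.1.2, MACS2 2.1.0.20140616 and the build GRCm38 (mm10) are listed in the submitters' processing notes. Their settings and thresholds, and how genes were joined to peaks, are not stated. The deposited table holds a running number, coordinates and, for 12656 of 16231 peaks, the symbol and RefSeq model of 1 transcript. Both ends of the models count from 0 and were raised by 1. Peak coordinates are as deposited.

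Names were matched to RefSeq genes of GRCm38.p6 by transcript accession (12516), then symbol or synonym (134), and 6 stayed unmatched. Synonyms that are symbols of another gene (Bach1 for Brip1, Cds1 for Chek2) were not used. The background was 20949 protein-coding genes (autosomes and X, curated transcript, known position). Where a gene had several peaks, the earliest counted. Shares carry exact (Clopper-Pearson) 95% intervals and medians order-statistic intervals, computed with Python 3.11.15 and scipy 1.17.1. Motifs were sought in RefSeq promoter windows, for NRF1 and YY1 as shorter cores than first listed. Position functions were tested on simulated data. No test across samples was possible with 1 library of each kind, and no test across genes was made. The genes, lists and alternatives were chosen with earlier results of these data known. Full values were planned for the earliest 8, latest 4, widest 3 and narrowest 3 genes, genes with several peaks and genes without one. One of the 5 earliest other repair genes is not reported here.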

Additional observations from a re-analysis of the deposited data

How the results depend on the processing

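The count of 27 named repair genes stayed within 1.5 times its value with a window of 500 bp (26), in the first 8115 peaks (21), by position at either gene end (31), in RefSeq promoter windows (24 of 26) and at a CpG ratio of at least 0.6 (20 of 23, chosen after seeing the data). The other set of starts for head-to-head pairs was also chosen after seeing the data. The count of 27 moved to 13 in the 8115 widest peaks. The limit of 1.5 times compares counts, some out of unlike totals, and not the gap to the background. At a CpG ratio of at least 0.6 the shares were 87.0% against 80.6%, while any named peak gave 84.4% against 49.2%. Requiring 50 bases of overlap left the count of 31 as it was. The background share of 49.2% was 47.7% over all protein-coding genes, 44.0% within 500 bp, 33.0% in the first 8115 peaks, 31.6% in the 8115 widest and 80.6% at a CpG ratio of at least 0.6. The median width was 614 bp with the widest peak of each gene and 571 bp over all 29 peaks, and the median place was 5788 in both cases. The count of 69 other repair genes was 65 within 500 bp and 52 in the first 8115 peaks. The table used here gives no score, so place and width stand in for a stricter threshold, and the depth is unknown. No paired analysis was possible because the ChIP and the input have no replicates.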
